A study of Mus musculus with 2 samples.

Results

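The genes that carry a cell from G1 into S phase and then copy its DNA were read in uterine stromal cells with and without Hand2. The 55 genes were chosen by symbol from a given list, and every probe set whose platform annotation gives exactly 1 of these symbols was used. All 55 were on the array, out of 18193 genes named in this way. They comprise 22 G1/S regulators and 33 genes of the replication machinery. The first group holds cyclins, cyclin-dependent kinases (CDKs) with the phosphatase Cdc25a, CDK inhibitors, pocket proteins and E2F factors.

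Each of 2 Affymetrix mouse arrays carried RNA pooled from stromal cells of 1 genotype, taken on day 4 of pregnancy. The control mice had floxed Hand2. The Hand2-null mice came from a cross of that allele with PRcre, in which Cre is made wherever the progesterone receptor gene is active. Both genotypes were on a mixed C57BL/6 and SV129 background, and both labels list Prcre in that entry. The series design states 5 mice per genotype and the extraction protocol states 4. Epithelial clumps were taken off enzymatically, and the stromal cells were plated for attachment before RNA was extracted. Hand2 encodes a transcription factor of the uterine stroma that lies downstream of the progesterone receptor. Its signal was 1545 in the control and 38.5 in the Hand2-null array. The second value is below the floor of that array, so the difference is at least 22.9-fold.

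With 1 array for each genotype, no difference below has a replicate error or a test, and each value describes a pair of RNA pools. Signals are MAS5 values on a linear scale. A gene counted as measured where at least 1 probe set reached the floor in at least 1 array, and the brightest such probe set stood for it. The floor was the 60th percentile of each array, 64.2 in the control and 67.5 in the Hand2-null array, and lower signals were raised to it before a ratio was taken. Ratios are log2 of Hand2-null over control, so that a negative value is a lower signal without Hand2. The log2 ratios of a gene's different probe sets had a standard deviation (SD) of 0.19 over 3665 genes and 0.18 over 24 members. This SD was taken from probe sets with both signals at or above the floors. It holds no variation between mice and no error that the probe sets of an array share. The middle 95% of the 10376 measured genes lay between -0.66 and 0.93.

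In a cell that leaves G1, D-type cyclins bring CDK4 and CDK6 to the retinoblastoma family of pocket proteins, whose phosphorylation frees E2F factors. E2F then drives cyclin E and the genes of DNA synthesis, while the INK4 and CIP/KIP inhibitors hold the kinases back. Origins are licensed by loading of the MCM2 to MCM7 helicase and are fired once CDC45 and the GINS complex join it. In the mouse uterus before implantation, progesterone halts division in the epithelium while cells of the underlying stroma divide.

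Of the 55 members, 51 were measured, 46 of them with both signals at or above the floors. Most genes of the machinery were lower without Hand2, whereas the regulators were split, and the difference between both groups was not tested. Of 31 measured machinery genes 26 were lower in the Hand2-null array and 5 higher, and their median log2 ratio was -0.24. Of 20 measured regulators 8 were lower and 12 higher, and the median was 0.04. Over all measured genes 55.3% were lower and the median was -0.03. The individual differences in the machinery were small: 0 of its genes reached 2-fold or 1.5-fold in either direction, and 11 of the 31 lay within 1 probe-set SD of 0, as did 5386 of all 10376 measured genes. Across the array, 1.99% of genes were higher by 2-fold or more and 0.742% lower by as much. At 1.5-fold the shares were 6.21% and 3.32%. Among the regulators 2, Cdk6 and Cdkn1a, were higher by 2-fold or more, and 0 were lower by 1.5-fold or more. That 0 depends on the floor, since the ratios of Ccne2 and E2f8 are bounds. With no floor they were -0.61 and -0.74, both past 1.5-fold. Because these are bulk pools, fewer dividing cells and less RNA of these genes per cell cannot be told apart.

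**Figure D1:**
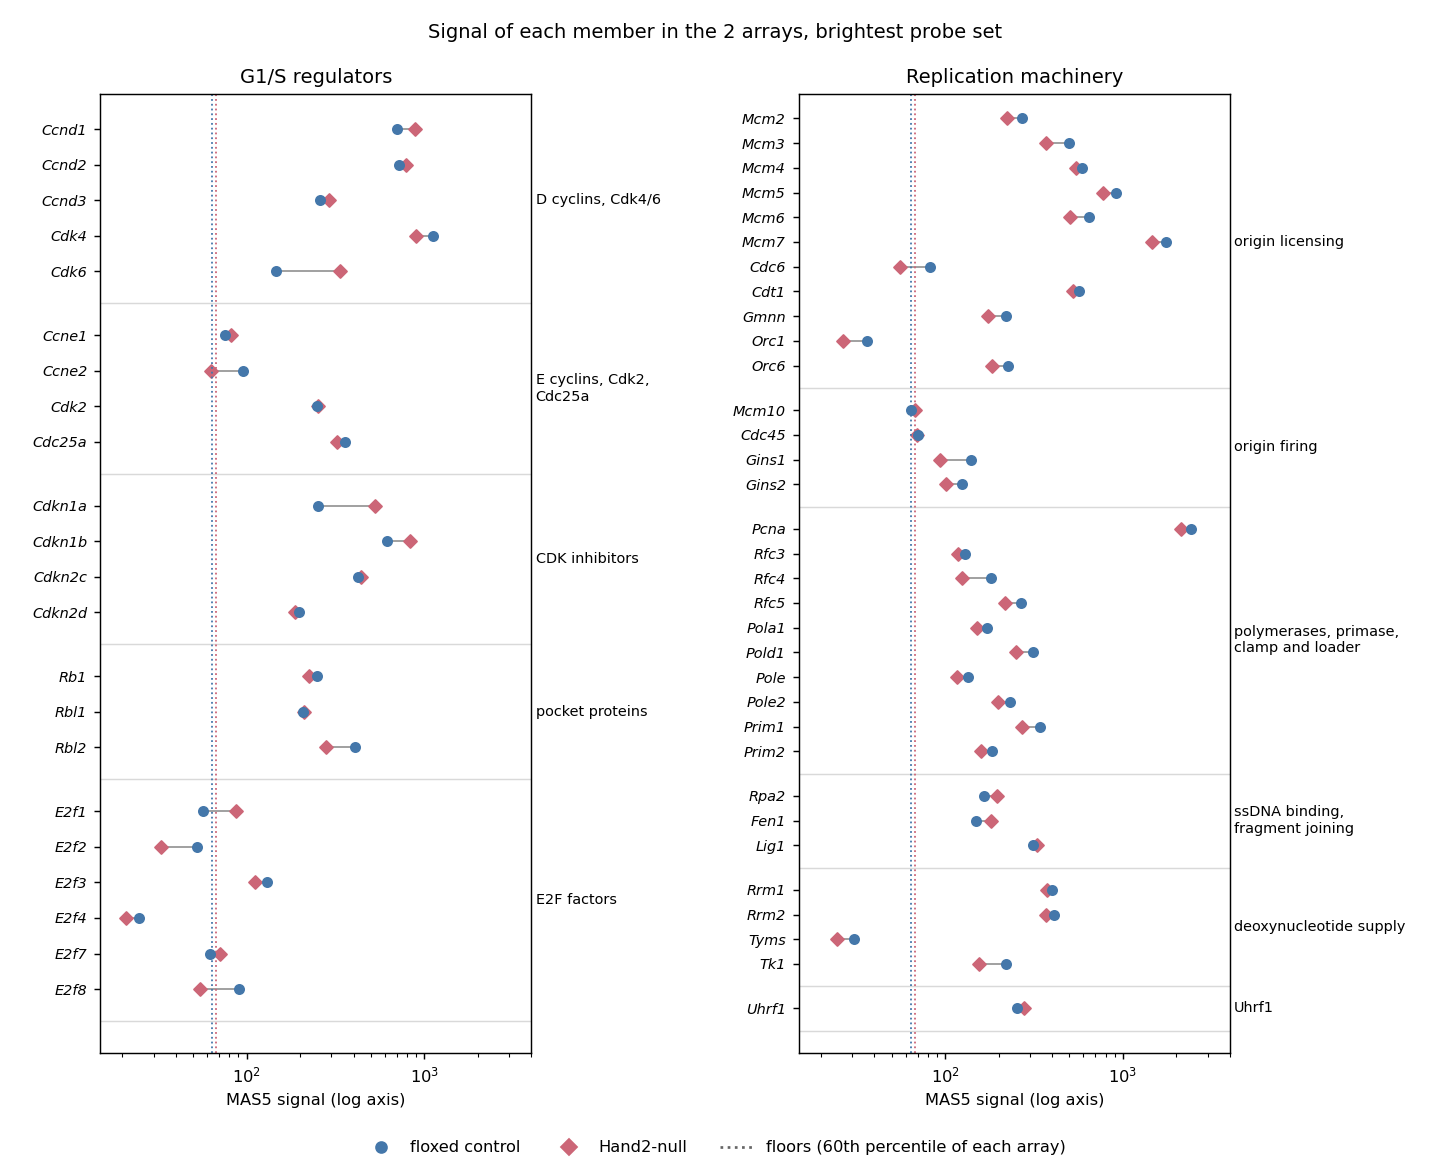
MAS5 signal (log axis) of the brightest probe set of each of the 55 members in the floxed control array (circles) and the Hand2-null array (diamonds), with the 2 floors as dotted lines at 64.2 and 67.5. In the right panel the diamond lies left of the circle for every gene of licensing and of the polymerase group, while Cdk6 and Cdkn1a in the left panel show the widest gaps to the right.

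Since the helicase genes were lower together, the bases before their transcription starts are shown for those with a match to an E2F motif. For contrast, Mcm2, which held none, is shown too. Mcm3 also held none and is not shown, and Mcm4 is not among the members with a match. The sequences are RefSeq's for GRCm38.p6, 250 bases that end just before the start, written 5′ to 3′ on the gene's strand, with motif matches in capitals. The motif was searched as TTTCCCGC, TTTCGCGC, TTTGCCGC or TTTGGCGC on both strands. For Mcm7, the more upstream of its starts in the table is shown, since the window before the other start held no E2F match.
Mcm5, chr8:75109259-75109508, plus strand: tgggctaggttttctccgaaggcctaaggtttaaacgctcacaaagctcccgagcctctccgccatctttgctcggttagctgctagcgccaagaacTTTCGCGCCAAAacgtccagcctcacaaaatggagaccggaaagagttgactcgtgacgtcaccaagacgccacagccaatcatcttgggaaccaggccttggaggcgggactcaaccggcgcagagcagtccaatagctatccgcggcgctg
Mcm6, chr1:128359706-128359955, minus strand: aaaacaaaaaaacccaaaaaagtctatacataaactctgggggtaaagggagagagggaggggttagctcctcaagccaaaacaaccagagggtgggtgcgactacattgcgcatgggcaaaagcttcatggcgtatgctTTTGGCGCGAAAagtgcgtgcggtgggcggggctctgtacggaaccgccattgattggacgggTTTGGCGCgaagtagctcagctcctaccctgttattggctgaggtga
Mcm7, chr5:138171884-138172133, minus strand: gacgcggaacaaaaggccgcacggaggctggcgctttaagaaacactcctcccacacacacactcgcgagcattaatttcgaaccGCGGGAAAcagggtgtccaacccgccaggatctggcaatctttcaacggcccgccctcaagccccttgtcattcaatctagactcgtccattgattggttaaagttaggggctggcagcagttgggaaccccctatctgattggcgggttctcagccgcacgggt
Mcm2, chr6:88898781-88899030, minus strand: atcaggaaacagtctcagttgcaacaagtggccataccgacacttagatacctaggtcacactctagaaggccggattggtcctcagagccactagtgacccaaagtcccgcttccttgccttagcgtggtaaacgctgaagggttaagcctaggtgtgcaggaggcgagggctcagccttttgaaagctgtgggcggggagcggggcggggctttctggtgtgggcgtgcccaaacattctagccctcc

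In Mcm5 the match TTTCGCGC began 153 bases before the start, and a match on the other strand, GCGCCAAA, overlapped it. Mcm6 held the same kind of overlapping pair from 110 bases before the start and a further TTTGGCGC from 47 bases before it. In Mcm7 the match lay on the other strand, 165 to 158 bases before the start. Of the 44 members found by symbol in the RefSeq promoter table, 13 held at least 1 E2F match in these 250 bases, or 29.5%. The share was 4.04% of 8410 measured genes and 2.16% of all 27025 genes in the table. It was 29.4% in the regulators (5 of 17) and 29.6% in the machinery (8 of 27). Within the machinery, 6 of the 7 measured genes with a match were lower, with a median log2 ratio of -0.25, as were 14 of the 18 without one, with a median of -0.21. The 340 measured genes of the whole array with a match had a median of -0.05. The CCAAT box, which often accompanies E2F sites in cell cycle promoters, was searched as CCAAT on both strands. It was present in 26 of the 44 members, or 59.1%, against 39.9% of measured genes. The E-box CATCTG, searched on both strands as a sequence that HAND factors can bind with their partners, was in 3 members, Prim1, Rfc4 and E2f2, or 6.82%, against 11.7% of measured genes. These matches describe letters in a window and not binding.

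The D-type cyclins and their kinases had ratios of both signs. Ccnd1, which links growth signals to CDK4 and CDK6, read 707 in the control and 889 in the Hand2-null array, for a log2 ratio of 0.33, and all 3 of its probe sets were higher, at 0.21 to 0.47. Ccnd2, a second D cyclin, had 722 and 791, a ratio of 0.13, and its 6 measured probe sets ran from -0.02 to 0.24. Ccnd3, the D cyclin known for its high level in decidual cells, had 260 and 290, a ratio of 0.16. The differences of Ccnd2 and Ccnd3 were smaller than the spread between probe sets of a gene.

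Their kinase partners went opposite ways. Cdk4 had array signals of 1115 and 895, for a log2 ratio of -0.32, and its 3 probe sets lay between -0.32 and -0.30. Cdk6 had 147 and 336, which is 2.28-fold higher without Hand2, with a log2 ratio of 1.19 and a second probe set at 0.97. Cdk6 thus had the largest ratio of the 51 measured members, and both of its probe sets that reached the floor lay beyond the probe-set SD. With the floor value added to each signal (a pseudo-signal) in place of flooring, its ratio was 0.93, below 2-fold.

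Of the CDK inhibitors among the members, Cdkn1a and Cdkn1b of the CIP/KIP family were higher without Hand2. Cdkn2c and Cdkn2d of the INK4 family were close to equal. Cdkn1a, which blocks cyclin-CDK complexes and binds the clamp PCNA, had 253 in the control and 527 in the Hand2-null array, 2.08-fold higher. Its 2 probe sets gave nearly the same log2 ratio, 1.06 and 1.04. With a pseudo-signal the ratio was 0.90, also below 2-fold. Cdkn1b, the inhibitor that holds CDK2 in quiescent cells, had 616 and 830, a ratio of 0.43 on its 1 measured probe set. The INK4 inhibitors among the members, which act on CDK4 and CDK6, differed between the arrays by less than the probe-set SD. Cdkn2c had 425 and 443, a ratio of 0.06, and Cdkn2d had 197 and 188, a ratio of -0.07.

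As Cdkn1a and Cdk6 are the only members past 2-fold, the 250 bases before their starts are shown in the same way, and neither held an E2F match. For Cdkn1a, the more downstream of its starts in the RefSeq table is shown. The window before its other start, also without an E2F match, is not shown. Sites for p53 were not searched in either window.
Cdkn1a, chr17:29093519-29093768, plus strand: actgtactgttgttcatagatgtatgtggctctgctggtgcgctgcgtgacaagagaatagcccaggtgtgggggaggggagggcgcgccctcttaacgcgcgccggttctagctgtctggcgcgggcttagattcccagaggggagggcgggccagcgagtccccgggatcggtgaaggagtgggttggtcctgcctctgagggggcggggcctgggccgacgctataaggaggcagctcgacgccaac
Cdk6, chr5:3343643-3343892, plus strand: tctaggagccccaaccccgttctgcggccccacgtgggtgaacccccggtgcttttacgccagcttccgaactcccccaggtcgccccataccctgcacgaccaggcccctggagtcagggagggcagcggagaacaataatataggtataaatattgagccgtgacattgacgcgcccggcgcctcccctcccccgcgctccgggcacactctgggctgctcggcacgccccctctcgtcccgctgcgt

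Cdkn1a is a target of p53, so other p53 targets were read beside it. Of 12 measured ones 8 were higher and 4 lower. Their median log2 ratio was 0.11, and 0 reached 2-fold. Pmaip1, a pro-apoptotic BH3 protein, had array signals of 194 and 352, for a ratio of 0.86, and Perp, a desmosomal protein, had 97.1 and 154, a ratio of 0.66. Mdm2, the ubiquitin ligase of p53, was at 0.41, with a second probe set at 0.18, within the probe-set SD. Btg2, an antiproliferative factor that also responds to immediate-early signals, was at 0.41, with a second at 0.55. These named targets had the largest ratios in size, and the lowest of the 12 was -0.38. In the same array 19 of 22 immediate-early and heat-shock genes, a group sensitive to the handling of cells, were higher, with a median of 0.40. The part of either in the value of Cdkn1a was not tested.

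Cyclin E and its kinase showed little difference on the whole. Ccne1, which activates CDK2 at the G1/S boundary, had array signals of 75.3 and 82.1, for a log2 ratio of 0.13, both near the floor. Ccne2, its paralogue, had 96.1 in the control and, without Hand2, 63.0, which is under the floor. It was at least 1.42-fold lower. Cdk2 had 249.7 and 252.5, a ratio of 0.02. Cdc25a, the phosphatase that activates CDK2, had 359 and 324, a ratio of -0.15, with a second probe set at -0.22. By the brightest probe sets, only Ccne2 among these lay outside the probe-set SD. Its log2 ratio was -0.51 with flooring, -0.30 with a pseudo-signal and -0.61 with no floor.

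The pocket proteins and E2F factors were mixed. Rb1 had array signals of 249 and 225, for a log2 ratio of -0.14, and Rbl1, the relative that is itself made in cycling cells, had 208 and 210.3, a ratio of 0.02. Rbl2, the pocket protein of quiescent cells, had 406 and 279, a ratio of -0.54, but its other measured probe set showed 0.15. Of the activating E2F factors, E2f1 had 56.6, under the floor, and 87.0, which is at least 1.35-fold higher, and E2f3 had 131 and 112, a ratio of -0.22. Of the repressors that close the E2F programme, E2f7 had 62.4, under the floor, and 70.5, or a ratio of at least 0.13. E2f8 had 90.7 and 54.4, and the second value was under the floor. It was no less than 1.34-fold lower, and with no floor its log2 ratio was -0.74. E2f2, with 52.6 and 32.8, and E2f4, with 24.7 and 20.9, were under the floors in both arrays, so no ratio is given. All measured E2F signals were dim, and 3 of the 4 ratios are bounds.

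Licensing genes shared 1 direction by their brightest probe sets. All 10 measured genes of this function were lower in the Hand2-null array. Their median log2 ratio was -0.28, and 19 of their 20 measured probe sets were lower, against 54.2% of all measured probe sets. Within it the 6 subunits of the MCM helicase ring had ratios of -0.42 to -0.11, and all 15 of their measured probe sets were lower. Mcm3 had array signals of 495 and 370, for a ratio of -0.42. Its other 2 measured probe sets showed -0.09 and -0.07, so that the size of this difference rests on 1 probe set. Mcm6 had 646 and 507, a ratio of -0.35, but its second measured probe set was at -0.095, within the probe-set SD. Mcm2 had 270.4 and 223, a ratio of -0.28. Mcm7 had 1746 and 1463, a ratio of -0.25, and its 4 probe sets ran from -0.39 to -0.25. Mcm5 had 921 and 775, a ratio of -0.25, and Mcm4 had 590.2 and 548, a ratio of -0.11, within the probe-set SD. The summed signal of the 6 was 4669 in the control and 3885 in the Hand2-null array, a ratio of 0.832 on the linear scale.

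The loaders of the helicase were lower as well. Orc6, a subunit of the origin recognition complex, had 227 and 184, a log2 ratio of -0.31. Cdc6, the ATPase that recruits the helicase to the origin, had 82.1 in the control and 55.6, under the floor. It was thus at least 1.22-fold lower, with a ratio of -0.28 with flooring and -0.56 with no floor. Cdt1, which delivers the helicase, had 566 and 526, a ratio of -0.11, and was the gene of this function whose probe sets disagreed in sign, the second showing 0.16. Gmnn, which encodes the CDT1 inhibitor geminin, had 219.9 and 176, a ratio of -0.32. Orc1, at 36.4 and 26.6, was under the floors in both arrays.

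Among the firing factors the GINS subunits were lower and the others nearly equal. Gins1 had array signals of 140.0 and 93.8, for a log2 ratio of -0.58 on 1 measured probe set, and of -0.34 with a pseudo-signal. Gins2 had 125 and 101.1, a ratio of -0.31, with a second probe set at -0.09. Cdc45, the helicase cofactor, had 70.4 and 69.8, a ratio of -0.01, and Mcm10, a factor that helps to activate the helicase, had 64.7 and 67.9, a ratio of 0.07. Both lay close to the floors, and the ratio of Cdc45 turned to 0.02 when the arrays were centred on the median.

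By their brightest probe sets, all 10 genes of the polymerases, primase, clamp and clamp loader were lower, with a median log2 ratio of -0.22. Of their 15 measured probe sets 12 were lower. Pcna, the sliding clamp, had array signals of 2418 and 2125, for a ratio of -0.19. Of the clamp loader subunits, Rfc4 had 181 and 125, a ratio of -0.53 with a second probe set at -0.38, Rfc5 had 268 and 217, a ratio of -0.31, and Rfc3 had 129 and 118, a ratio of -0.14 with a second at 0.04. Both probe sets of Rfc4 lay beyond the probe-set SD, but with the floor at the 75th percentile, where its lower signal is raised to the floor, its ratio was -0.13, within that SD.

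The polymerase subunits lay close together. Pold1, the catalytic subunit of lagging-strand polymerase delta, had 314 and 252, a log2 ratio of -0.32. Pole and Pole2, of leading-strand polymerase epsilon, had 135 and 117 and 233 and 198, with ratios of -0.21 and -0.24. Pola1, the catalytic subunit of the priming polymerase alpha, had 172 and 152, a ratio of -0.18. The primase subunits were less certain. Prim1 had 340.0 and 271, a ratio of -0.33, while its second probe set had the opposite sign and the same size, 0.33. Prim2 had 183 and 160.0, a ratio of -0.20, with a second at 0.03.

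The genes of single-strand binding and of Okazaki fragment joining were not lower by their brightest probe sets. Rpa2, a subunit of replication protein A, had 165 and 196, a log2 ratio of 0.24, with a second probe set at -0.11. Fen1, the flap nuclease, had 149 and 182, a ratio of 0.29, with a second at -0.24. Lig1, the ligase that seals the fragments, had 313 and 330.1, a ratio of 0.08 on 1 probe set. The probe sets of Rpa2 and Fen1 disagreed in sign, as did those of Prim1, Prim2, Rfc3, Cdt1, Rrm1 and Rrm2. These 8 genes are counted as lower or higher by their brightest probe set, and the direction of each is uncertain.

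Of the genes that supply deoxynucleotides, Tk1 stood apart. Thymidine kinase, its product, salvages thymidine in S phase, and its signals were 220.4 and 155, a log2 ratio of -0.51. Rrm1 and Rrm2, the subunits of ribonucleotide reductase, had 398 and 374 and 411 and 371, with ratios of -0.09 and -0.15, and each had a measured probe set above 0, at 0.14 and 0.10. Tyms, thymidylate synthase, had 30.7 and 24.8 on its brightest of 4 probe sets, under the floors. Uhrf1, which guides maintenance methylation to newly copied DNA, had 254 and 276, a ratio of 0.12, within the probe-set SD.

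**Figure D2:**
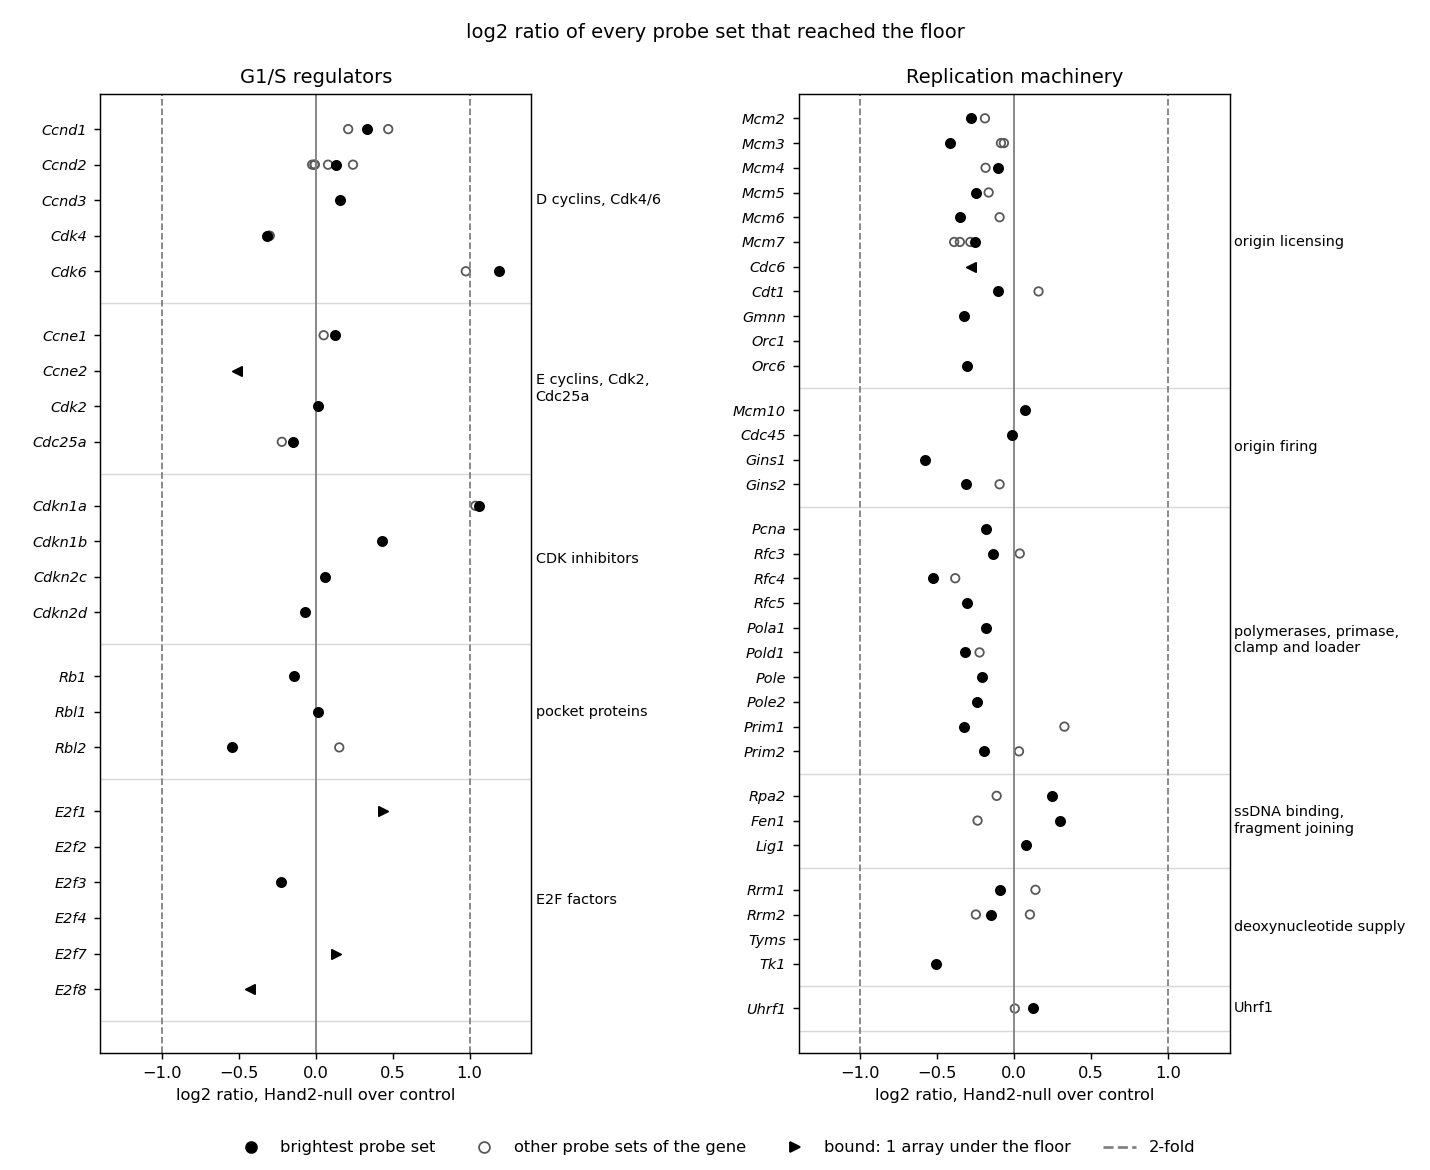
The log2 ratio of Hand2-null over control for every probe set that reached the floor, by member and role, with the brightest probe set filled and the other probe sets open. Triangles mark genes with 1 array under the floor, whose ratio is a bound, and dashed lines mark 2-fold. The 15 probe sets of Mcm2 to Mcm7 all lie left of 0, whereas Prim1, Fen1, Rpa2 and Rbl2 have probe sets on both sides.

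Members with several measured probe sets did not always give 1 sign. Of 18 such machinery genes 9 were lower by all probe sets, 1 was higher by all and 8 had both signs. Of 8 such regulators 2 were lower by all, 4 higher by all and 2 had both signs. Of all 4065 measured genes with several, 1446 were lower by all, 1131 higher by all and 1488 had both signs. By probe sets, 41 of 53 of the machinery were lower, with a median log2 ratio of -0.19, and 14 of 34 of the regulators, with a median of 0.06. The lower signal of the machinery was not limited to dim or to bright genes. All measured genes were ranked by mean signal and cut into 4 equal bins. From the dimmest bin to the brightest, 6 of 7, 9 of 11, 5 of 7 and 6 of 6 machinery genes were lower, against 49.7%, 56.7%, 56.8% and 57.7% of all measured genes.

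Other genes of the same pathway were read from separate lists, and no difference between these lists and the 55 members was tested. Of 32 measured replication genes outside the 55, 23 were lower and 9 higher. The median log2 ratio was -0.14, and 0 reached 1.5-fold. Orc3, of the origin recognition complex, had 232 and 157, a ratio of -0.56, and Clspn, the replication checkpoint adaptor claspin, had 127 and 88.8, a ratio of -0.51. Supt16, a subunit of the histone chaperone FACT, was at -0.38, while Dna2, a nuclease and helicase, was at 0.53 with 100.2 and 144. Of 13 further G1/S regulators 11 were lower and 2 higher, and the median was -0.29. Skp2, the ubiquitin ligase subunit that targets the CDKN1B protein for destruction, had 192 and 137, a ratio of -0.48, and all 4 of its measured probe sets were lower. Fbxw7, the subunit that targets cyclin E, had 258 and 176, a ratio of -0.55 with a second probe set at -0.15. Myc, a growth factor-induced activator of G1 progression, had 776 and 475, a ratio of -0.71. Its relative Mycn had 67.1, near the floor, and 159, a ratio of 1.24 on 1 measured probe set. Most of these further regulators were thus lower, while the 20 measured regulators among the members were split.

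Genes of mitosis and G2/M were read as the next stage of the cycle. Of 30 measured ones 29 were lower. Their median log2 ratio was -0.33, compared with -0.24 for the replication machinery. The difference between these medians was not tested. Ube2c, the ubiquitin-conjugating enzyme of the anaphase-promoting complex, was at -0.82, Nek2, a centrosomal kinase, at -0.80 or lower, and Ccnb2 and Cdk1, the mitotic cyclin and its kinase, at -0.53 each.

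**Figure D3:**
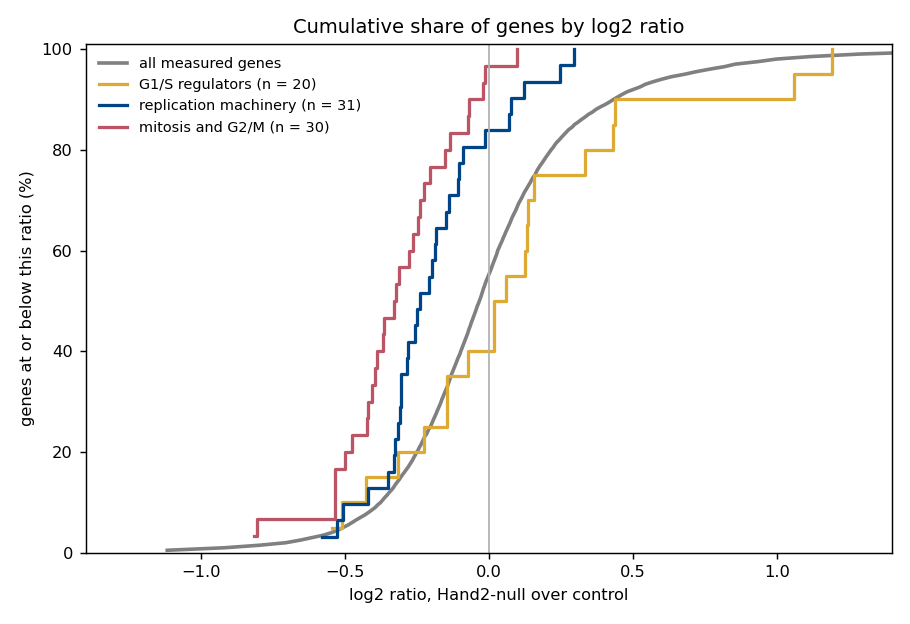
Share of genes (vertical axis, %) at or below each log2 ratio of Hand2-null over control (horizontal axis) for all 10376 measured genes, the 20 measured regulators, the 31 measured machinery genes and 30 genes of mitosis and G2/M. At a ratio of 0 the machinery curve stands at 83.9% and that of the regulators at 40%, against 55.3% for all genes.

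Markers of several cell types were measured in both pools, and some differed between the arrays. More cells of a type and more RNA of its markers per cell cannot be told apart here. All 14 markers of smooth muscle were higher without Hand2, 11 of them by 2-fold or more. Their median log2 ratio was 1.39, and their summed signal was 20607 in the control and 46451 in the Hand2-null array. Of 7 measured mesothelial markers 6 were higher, with a median of 0.93 and sums of 1123 and 1792. Of 15 measured epithelial markers 11 were higher, with a median of 0.20 and sums of 10686 and 12957. All 14 stromal markers, with Vim, Pgr and Hoxa10 among them, were measured, 8 lower and 6 higher. They had a median of -0.11 and sums of 59165 and 63842. Their ratios ran from -0.68 for Hoxa11 to 0.98 for Col1a1. Of 10 endothelial markers 8 were lower, with a median of -0.24 and sums of 4056 and 3480. The largest ratios in size among them went opposite ways, Cldn5 at 1.55 and Cdh5 at -1.11. Of 12 natural killer and T cell markers on the array 8 were measured, with a median of -0.11 and sums of 918 and 873, and Cd3e, Cd2, Ncr1 and Prf1 were under the floors. The 12 measured markers of macrophages and myeloid cells had a median of -0.06 and sums of 12888 and 12380. Every smooth muscle marker and each of the 15 epithelial markers on the array were at or above the floor in 1 array or both. The part of these differences in the lower replication genes and in the higher Cdk6 and Cdkn1a was not tested.

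**Figure D4:**
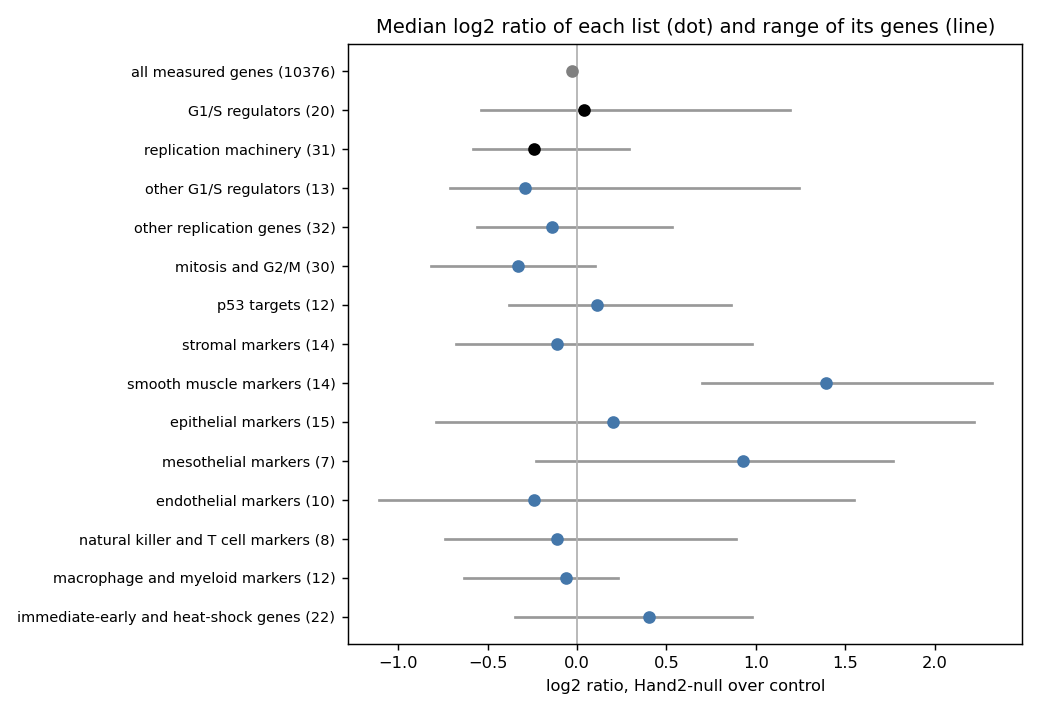
Median log2 ratio of Hand2-null over control (dot) and the range of the genes (line) for the regulators and machinery (black), further pathway lists and cell type markers (blue) and all measured genes (grey, median only), with the number measured in brackets. The machinery lies at -0.24 and mitosis at -0.33, while smooth muscle markers lie at 1.39.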

How the data were processed

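Per the series design, RNA of the stromal cells was pooled within a genotype before it was put on 1 array. The deposited values are intensity on a linear scale. The submitters' processing notes name MAS5 and, for software, version 1 of the Affymetrix Expression Console as what the authors used. With 2% trimmed from both ends, either array had a mean of 150.0, so each had been scaled to a common mean. The genome build was not given in the sources used here.

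Of 45101 probe sets, 64 controls were left out, and the 34945 others with 1 gene symbol were used. The brightest probe set that reached the floor stood for its gene. All 55 members matched a RefSeq gene by Entrez ID. The members and lists were chosen with earlier results of these data known. Values were given for Hand2, every member and, of other lists, up to 4 genes with the largest ratio in size. Some other markers were named without values. Alternatives were other scalings (median centring, quantile, loess, span 0.3), a floor at the 50th or 75th percentile, and no floor or a pseudo-signal. Others were averaged probe sets, only probe sets without the suffixes _s_at, _x_at and _a_at, 1.5-fold and 3-fold thresholds and the mean of a list. The procedure was run on simulated arrays with planted fold changes and noise of the probe-set SD. That noise holds no variation between mice and no error that the probe sets of an array share. The number of arrays limits the precision. Python 3.11.15, numpy 2.4.6, pandas 2.3.3, statsmodels 0.14.6 and matplotlib 3.10.9 were used.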

Additional observations from a re-analysis of the deposited data

How the results depend on the processing

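Over the scalings, floors and probe-set rules tried, the median log2 ratio of the replication machinery ran from -0.25 to -0.17 and that of the G1/S regulators from 0.02 to 0.08, its mean included. The machinery had 20 to 28 lower genes of the 24 to 33 measured. With the floor at the 75th percentile 5 of 14 measured regulators were lower, against 8 of 20, since fewer genes were measured. The log2 ratio of Hand2 was -5.33 with the floor at the 50th percentile or with none, -3.23 at the 75th percentile and -3.93 with a pseudo-signal. Over all genes, those at least 2-fold higher and lower numbered 206 and 77. A floor at the 75th percentile left 117 and 45. There were 1551 and 1510 with none, and 117 and 40 with a pseudo-signal. At 1.5-fold they were 644 and 345, and at 3-fold 49 and 20. Centring on the median and the pseudo-signal each changed the sign of 1 of 51 members, Cdc45, to 0.02 and 0.03, and quantile and loess scaling that of 0. Averaging probe sets changed that of 2 members, Cdt1 and Rrm1, to 0.03 and 0.02. Leaving out probe sets with the suffixes _s_at, _x_at and _a_at changed that of 3 of 43. Cdt1 was then at 0.16, Rfc3 at 0.04 and Prim2 at 0.03, and the brightest probe set of each had the suffix _a_at. No paired analysis was possible because each genotype had 1 array. Members near the floor, such as Mcm10 and Ccne1, have ratios that cannot be resolved at this signal.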
